A study of Mus musculus with 8 samples.

Results

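The baseline transcriptome of dendritic cells in the inflamed mouse central nervous system was read from the 4 vehicle-treated libraries of the series, named PBS 1 to PBS 4 here, out of 8 libraries in all. They were taken by their label, and all 12256 genes of the expression table were used in them. The other 4 libraries, from mice given neural precursor cells, were not used. Each PBS library came from C57Bl/6 mice in which experimental autoimmune encephalomyelitis (EAE), a model of multiple sclerosis, had been raised by immunization with the myelin peptide MOG35-55. The mice received 10 µL of PBS without cells into the cerebrospinal fluid space at the peak of disease, given as 2 to 4 days after onset in the design text and as 4 days in the protocol. Monocyte-derived dendritic cells (moDCs) were sorted 7 days later from hindbrain and spinal cord, with a gate that kept cells high in CD45 and positive for CD11b, Ly6C and MHC class II, with intermediate CD11c, and left out those with Ly6G. The preparation of every pool included a digestion with collagenase at 0.2 mg/mL for 30 min before the RNA was taken. Its effect on the levels was not tested, since all pools shared it. Each library pooled 4 to 7 mice, so the spread described below is between pools and not between animals. No second condition enters, so there is no contrast to test and no p-value is given; a difference between pools is read against the spread of other genes at the same level and against counting error.

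As background, monocytes that enter the inflamed central nervous system from blood lose part of their monocyte program, take up antigen and acquire MHC class II, costimulatory molecules and CD11c. In EAE such cells re-present myelin antigen to invading CD4+ T cells and secrete interleukin-1β, tumor necrosis factor and chemokines that recruit further leukocytes. They share most surface markers with inflammatory macrophages.

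The values are the deposited normalised log2 expression, in which 1 unit is a 2-fold difference. They could be turned back into whole reads for every gene, and gave 15746650, 21068166, 7702189 and 9997184 reads over the genes of the table in PBS 1 to 4. The median gene had 236, 281, 136 and 129 reads. Across genes the pools correlated with Pearson's r between 0.962 (PBS 1 with PBS 4) and 0.987 (PBS 2 with PBS 4), a description in which genes are not independent. PBS 1 stood apart by its low immediate-early genes, whose mean was 5.53, 7.02, 7.05 and 7.27 in PBS 1 to 4. PBS 3 stood apart by its mitochondrially encoded reads, at 18.6% of its total against 34.8, 33.8 and 34.4% in PBS 1, 2 and 4. The pools also differed with base composition: the deviation of a gene from its own mean correlated with the GC content of its longest transcript at Spearman's rho 0.314 in PBS 1 and -0.299 in PBS 4, against -0.058 and -0.069 in PBS 2 and 3, over 11928 genes. Counts of variable genes are given with all pools and, for some lists only, also with PBS 2 to 4 alone. For some lists the results are also given with the GC trend removed. Where neither is given, a count can rest on PBS 1 or on that trend.

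The sorted cells carried the transcripts of their gate at high level in every pool. H2-Ab1, the β chain of the MHC class II molecule I-A, had log2 values of 11.89, 12.14, 11.73 and 11.88 in PBS 1 to 4, the order used for every set of 4 values below. Itgam, which encodes CD11b, had log2 values of 10.68, 10.46, 10.33 and 10.78, and Ptprc, which encodes CD45, had 9.69, 9.85, 9.56 and 9.73. Neither gene set any pool apart by as much as 1 log2 unit. Ly6c2, a marker of inflammatory monocytes that wanes as they differentiate, had log2 values of 8.99, 8.81, 8.46 and 8.31, and its highest and lowest pools were PBS 1 and PBS 4. Itgax, which encodes CD11c, lay lowest of the 5 with 7.35, 7.33, 7.5 and 7.33 and was nearly the same in all pools. All 5 lay in the top 10% of genes by deposited level. Per kilobase of merged exon, where levels of different genes can be compared, the means were 10.55 for H2-Ab1, 8.23 for Itgam, 7.19 for Ly6c2, 5.51 for Ptprc and 5.12 for Itgax on the log2 scale. In GRCm38 the genes lie on chromosome 17 from 34257689 to 34269419 (H2-Ab1), chromosome 7 from 128062640 to 128118491 (Itgam), chromosome 7 from 128129547 to 128150657 (Itgax), chromosome 1 from 138062861 to 138175708 (Ptprc) and chromosome 15 from 75108158 to 75111970 (Ly6c2). Ly6g, the neutrophil antigen excluded by the gate, was among the markers not listed in the table of expressed genes used here. The data do not go against the label; markers of conventional dendritic cells, given further on, were also present.

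Reads were concentrated in few transcripts. The mitochondrial ribosomal RNA genes mt-Rnr2 and mt-Rnr1 held on average 20.6% and 8.28% of the reads of a pool. The genes that hold 50% of the reads numbered 55, 60, 272 and 54 in PBS 1 to 4, and among reads outside the mitochondrial genome 567, 509, 577 and 491. PBS 3 therefore differed from the others in the mitochondrial part and much less in the rest. Of the protein-coding nuclear genes Lyz2, which encodes the bacteriolytic enzyme lysozyme of macrophages and monocytes, held the largest mean share at 1.78%. It was followed by B2m, the light chain of MHC class I molecules, at 1.12% and Fth1, the ferritin heavy chain that stores iron, at 1.10%. Ctss, the cathepsin that trims the invariant chain of MHC class II, had 0.717%. Malat1, an abundant nuclear long non-coding RNA, had 0.922% of reads and log2 values of 13.68, 12.67, 13.21 and 12.76, highest in PBS 1 and PBS 3. An annotated transcript without a matching gene in the reference annotation, RP23-81C12.3, followed mt-Rnr1 in rank with 14.34, 14.09, 14.06 and 13.94 and cannot be assigned a function here.

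Per length, the highest nuclear coding genes were those of lysosomes, antigen presentation, iron storage and actin. The log2 level per kilobase was 13.7 for Lyz2, 13.65 for B2m, 12.36 for Ctss and 11.62 for Fth1. Tmsb4x, the actin-monomer binding protein thymosin β4, was at 10.73 log2 per kilobase and Cd74, the MHC class II invariant chain, at 10.68. Gm23935 and Gm24270, which also ranked here, are annotated as microRNA genes of 57 bases, so their level per kilobase (15.65 and 11.61) rests on a very short length. By lists of genes of known function, the medians of the percentile per kilobase ran from 17.4 for cell cycle genes to 99.9 for mitochondrially encoded genes. Of 44 function lists with 5 or more genes in the table, 36 had a median deposited level above the 50th percentile.

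**Figure D1:**
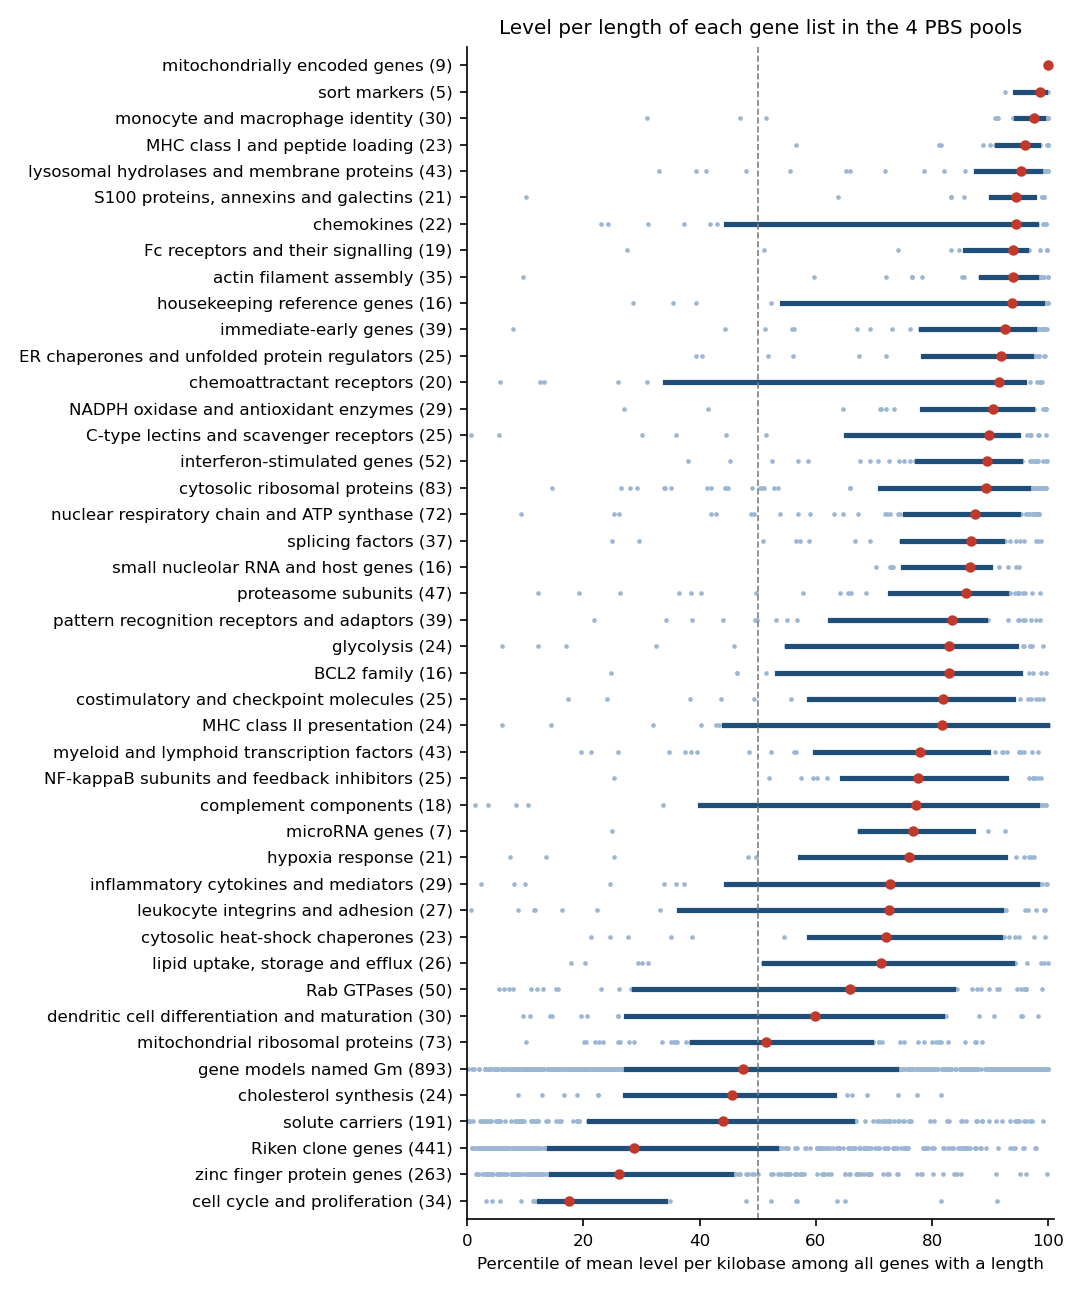
Percentile of the mean level per kilobase of merged exon (horizontal axis, 4 PBS pools) for the members of 44 gene lists, with the number of members that have a length in brackets. Points are genes, bars the range between the quartiles of each list and red dots its median; the mitochondrially encoded, sort marker and monocyte lists lie at the top and the cell cycle list at the bottom.

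The monocyte and macrophage program was high. All 30 listed identity genes were in the table, 23 of them in the top 10% by deposited level, and 3 varied over 2-fold between pools, where over all genes 1831 of 12256 did (14.9%), and 245 (2%) varied over 4-fold. Their median SD was 0.256 against 0.174 log2 units for genes nearest in level, and 23 of 30 had a larger SD than those, so few were over 2-fold but most varied more than their peers. Ccr2, the receptor that draws monocytes out of the marrow and into inflamed tissue, had log2 values of 9.35, 9.45, 9.61 and 9.78. Csf1r, the receptor for macrophage colony-stimulating factor, named after its values were seen, had 9.57, 9.83, 9.49 and 9.75, and Lyz2 had 13.66, 14.3, 14.01 and 14.4. Each of these 3 genes kept within 1 log2 unit over the pools. Apoe, the lipid carrier that macrophages secrete, had 10.87, 11.61, 11.27 and 11.66 and was lowest in PBS 1. The 3 variable members were Cd14, Vcan and Chi3l3. Cd14, the co-receptor for bacterial lipopolysaccharide, had 6.96, 8.47, 7.99 and 8.7, lowest in PBS 1. Vcan, an extracellular matrix proteoglycan of classical monocytes, had 5.0, 3.69, 4.79 and 5.4, lowest in PBS 2. Chi3l3, a chitinase-like secreted protein of alternatively activated macrophages, had 10.71, 10.1, 10.32 and 11.77, highest in PBS 4; it was singled out after its values were seen.

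Antigen presentation genes were abundant, and most genes of the MHC class II pathway were highest in the same pool. H2-Aa, the I-A α chain, had log2 values of 11.53, 12.24, 11.68 and 12.08, Cd74 had 11.1, 11.71, 11.22 and 11.7, and Ctss had 12.75, 13.06, 12.48 and 12.91. In all 3 genes, and in 14 of the 24 genes of the pathway, PBS 2 was the highest pool, which it was for 19% of all genes. PBS 1 was lowest in 11 of the 24, against 33.3% of all genes, and in 15 with the GC trend removed. The widest range was in H2-Eb2 (-0.58, 0.14, 1.07 and 0.78), a class II β chain gene with few reads. Next was Cd72 (2.01, 3.11, 2.79 and 2.92), a C-type lectin better known from B cells. These were the only 2 of 24 over 2-fold, or 8.33% against 14.9% of all genes, and none was within PBS 2 to 4. The median SD of the list was nevertheless 0.281 against 0.174 for genes nearest in level, with 16 of 24 above those. Ciita, the master regulator of class II transcription, had 6.9, 6.36, 6.43 and 6.07, highest in PBS 1; it was added after its values were seen.

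MHC class I genes were mostly highest in PBS 1 and lowest in PBS 4, though the most abundant of them, B2m, was lowest in PBS 1 with 13.09, 13.69, 13.29 and 13.68. H2-K1 and H2-D1, the classical class I heavy chains, had log2 values of 11.86, 11.95, 11.73 and 11.78 and of 11.35, 11.3, 11.22 and 11.11. H2-D1 had that order, whereas H2-K1 was highest in PBS 2 and lowest in PBS 3. Over the list PBS 1 was highest and PBS 4 lowest in 15 and 15 of 23 genes, respectively, where PBS 1 is highest for 33.4% and PBS 4 lowest for 27.1% of all genes. Tap1 and Tap2, which form the transporter that brings peptides to class I molecules, had 7.87, 7.25, 7.22 and 6.93 and 4.83, 4.15, 4.13 and 3.73. Both were highest in PBS 1 and lowest in PBS 4. Tap2 was the 1 member over 2-fold, and no member was with the GC trend removed. Class I genes were richer in GC than the average gene, with a median of 53.3% against 49.0%, and with the GC trend removed the mean deviation from the 4-pool mean shrank from 0.14 to 0.09 in PBS 1 and from -0.14 to -0.1 in PBS 4.

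Per kilobase the highest costimulatory and checkpoint genes were Cd274 at 7.65, Sirpa at 7.02 and Lilrb4 at 6.73 on the log2 scale. Cd274, which encodes the inhibitory ligand PD-L1, had log2 values of 9.56, 9.46, 9.58 and 9.44. Sirpa, the receptor for the CD47 signal that restrains phagocytosis, had 9.38, 9.34, 9.26 and 9.27, and Lilrb4, an inhibitory immunoglobulin-like receptor, had 9.25, 8.86, 9.14 and 9.21. The SD of Cd274 and Sirpa, 0.07 and 0.06, was below the 0.174 of genes at their level. Tnfsf9, the ligand of the T cell costimulator 4-1BB, had 2.8, 2.91, 2.65 and 3.81, highest in PBS 4, and Btla, an inhibitory receptor, had 3.5, 4.52, 4.56 and 3.46, higher in PBS 2 and 3 than in PBS 1 and 4. They were 2 of 3 members over 2-fold among 25, or 12% against 14.9% of all genes. The median SD of the list was 0.243 against 0.174 for genes nearest in level. Of the 25 members 17 had a larger SD than those, so Cd274 and Sirpa do not stand for the list.

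Genes of dendritic cell differentiation and maturation were much less uniform. Of 30 genes 16 varied over 2-fold (53.3%), and 4 did within PBS 2 to 4, where over all genes the share was 7.38%. The median SD was 0.521, against 0.169 for genes nearest in level. Cd83, a surface marker of mature dendritic cells, had log2 values of 4.29, 6.84, 6.72 and 6.89: PBS 1 lay more than 2 units below the others, which were nearly equal. Klf4, a zinc finger factor needed for monocyte differentiation, had 5.55, 7.62, 7.93 and 8.35, again with PBS 1 lowest. Id2, the repressor that favours dendritic cell development, had 7.48, 8.17, 8.14 and 8.75. Ccr7, the receptor that takes mature dendritic cells to lymph nodes, had -0.12, 2.14, 2.47 and 1.61 and Fscn1, the actin-bundling protein of their dendrites, -0.45, 0.94, 1.56 and 0.78; both had few reads in PBS 1. Cd209a, the lectin DC-SIGN homologue of moDCs, had 0.51, 2.69, 2.47 and 1.61, highest in PBS 2 and 3. Irf4 and Irf8, transcription factors that direct dendritic cell subsets, were even by contrast with 4.0, 4.16, 4.31 and 4.11 and 6.69, 6.82, 6.62 and 6.54; both were added after their values were seen. In bulk RNA a low value in one pool can come from fewer cells that express the gene or from less RNA per cell, and these cannot be told apart here or in any result below.

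Sensing and uptake receptors differed in their spread. Of 39 pattern recognition genes 3 varied over 2-fold, and none did within PBS 2 to 4. Tlr2, the receptor for bacterial lipopeptides, had log2 values of 7.78, 8.53, 8.15 and 8.63, and Nlrp3, the sensor of the inflammasome that releases interleukin-1β, had 5.15, 6.19, 6.49 and 6.49; PBS 1 was lowest in both. Clec7a, the β-glucan receptor dectin-1, had 9.55, 9.92, 9.89 and 10.23. Tyrobp and Fcer1g, the signalling adaptors of activating receptors, had 9.35, 9.49, 9.32 and 9.52 and 9.29, 9.34, 9.08 and 9.45 and ranked among the highest coding genes per length, at 10.01 and 9.49 log2 per kilobase. Of 19 genes of Fc receptors and their signalling 2 were over 2-fold, Fcrls and Fcgrt. Of 25 C-type lectins and scavenger receptors 5 were over 2-fold (20%) and 3 within PBS 2 to 4, and 23 of 25 had a larger SD than the genes nearest in level (median 0.289 against 0.16). Chemoattractant receptors had 5 of 20 over 2-fold and complement components 5 of 18, which are 25% and 27.8%. Within PBS 2 to 4 the shares were 5% and 11.1%, against 7.38% of all genes. The complement C3a receptor C3ar1 had 9.32, 9.73, 9.62 and 9.7, while Ccrl2, a non-signalling chemerin receptor that activated myeloid cells induce, had 7.05, 9.1, 8.68 and 9.23 and was lowest in PBS 1. The secreted complement protein C3 had 10.66, 11.15, 10.73 and 11.09.

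Over the whole table the spread between pools was close to counting error for weakly expressed genes and several times above it for strongly expressed ones. The median SD over 4 pools was 0.213 log2 units (quartiles 0.135 and 0.340), and that expected from counting alone was 0.110. In the lowest 10% of genes by level the median SD was 0.501 with 0.387 from counting, and 59.5% of genes varied over 2-fold. In the 10% of genes just below the top 10% the median SD was 0.147 with 0.0470 from counting, and 2.29% varied over 2-fold. The share then climbed to 5.71% in the top 10%. Over PBS 2 to 4 the median SD of all genes was 0.163, and 905 genes varied over 2-fold in place of 1831. SD exceeded 2 times the counting SD in 5470 genes (44.6%).

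**Figure D2:**
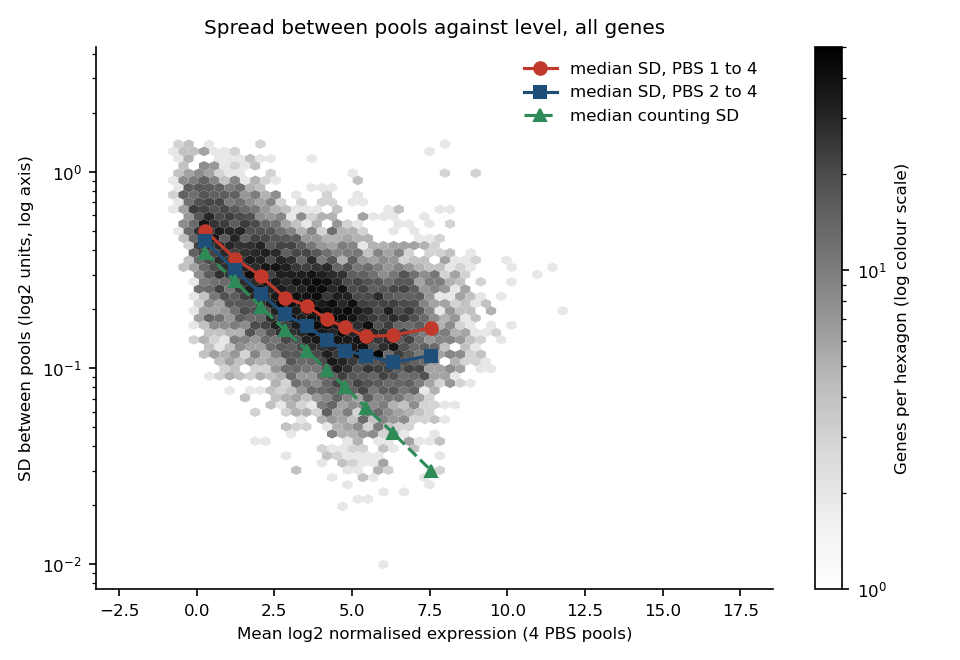
Standard deviation between PBS pools (vertical, log axis) against mean log2 level (horizontal) for all 12256 genes, as the number of genes per hexagon. Lines give medians in 10 bins of level for PBS 1 to 4, for PBS 2 to 4 and for counting alone; the counting line falls to 0.0300 in the top bin, where the 4 pools stay at 0.160.

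Variation between pools was unevenly shared among functions. Of the 44 function lists 15 held a larger share of genes over 2-fold than the whole table and 29 a smaller one. The 15 became 24 where genes with a mean under 1 were left out, or where 1 was added on the linear scale. Against genes nearest in level, 32 of 44 lists had the larger median SD. By share over 2-fold the order began with immediate-early genes (82.1%), chemokines (59.1%), small nucleolar RNA and host genes (56.2%), dendritic cell differentiation (53.3%) and inflammatory cytokines (51.7%). No gene over 2-fold was found among 47 proteasome subunits, 73 nuclear genes of the respiratory chain, 37 splicing factors and the 5 sort markers.

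**Figure D3:**
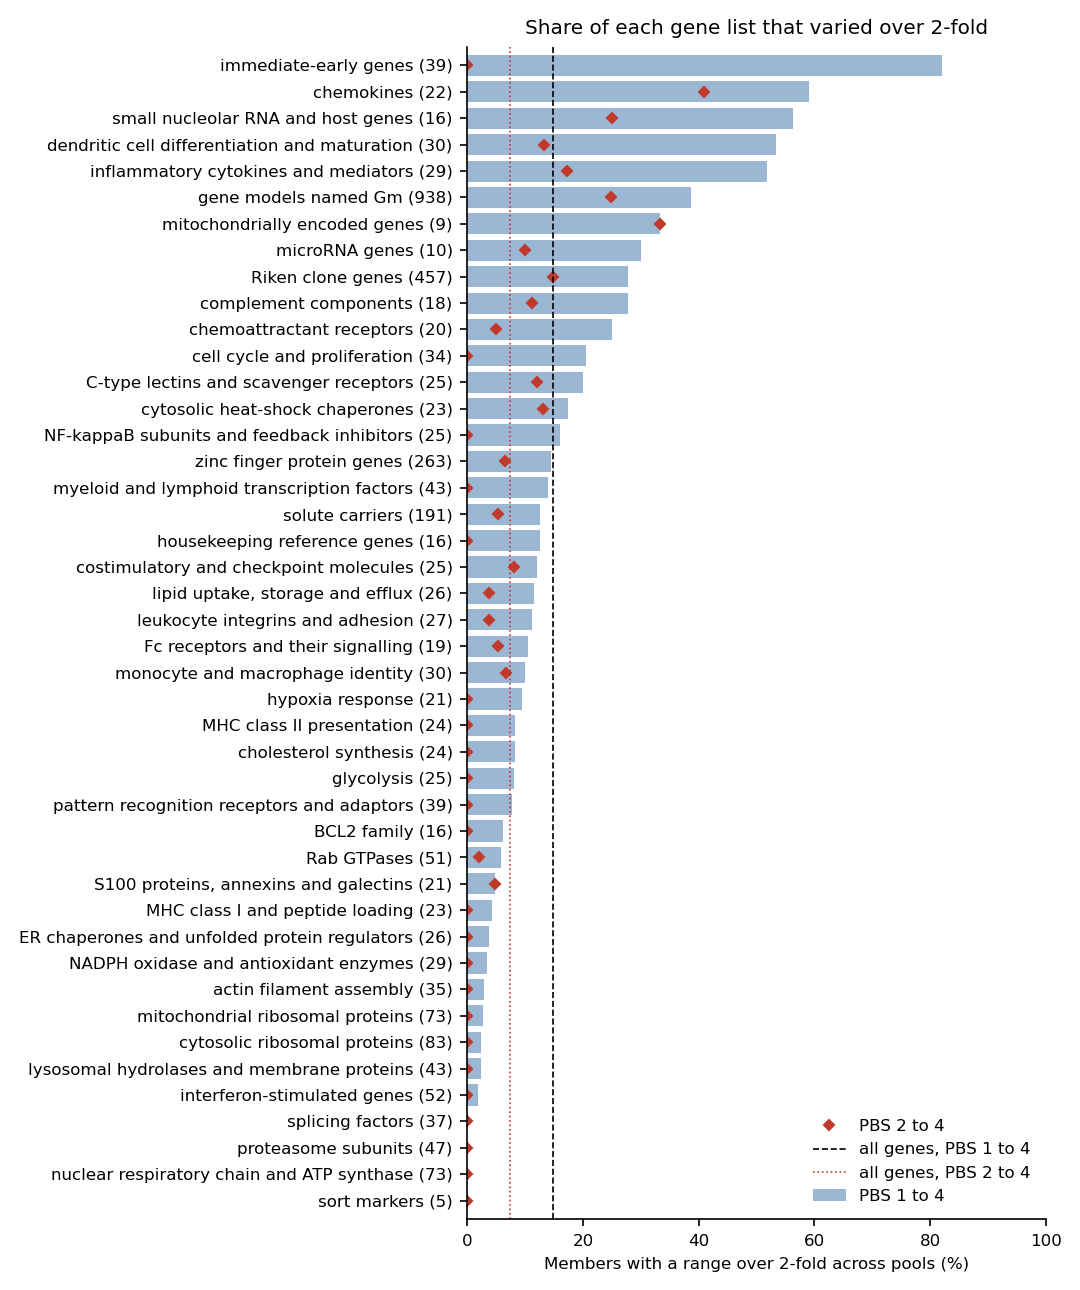
Percentage of the members of each gene list whose highest and lowest PBS pool differed by more than 2-fold (bars, 4 pools; red diamonds, PBS 2 to 4), with list sizes in brackets. Dashed and dotted lines mark the shares of all genes, 14.9% and 7.38%; the immediate-early bar reaches 82.1% while its diamond is at 0.

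Immediate-early genes, which cells transcribe within minutes of a stimulus without new protein synthesis, varied most. Of 39 measured, 32 were over 2-fold between the pools and none was over 2-fold within PBS 2 to 4. PBS 1 was the lowest pool in 38 of 39 and PBS 4 the highest in 26, against 33.3% and 26% of all genes. Their median SD was 0.793, where genes of the same level had 0.158. These genes are rich in GC, with a median of 54.6%, while the GC trend put GC-rich genes higher in PBS 1; with that trend removed PBS 1 was lowest in 39 of 39 and 33 were over 2-fold. PBS 1 did not lack these transcripts, for the list was still 0.885% of its reads outside the mitochondrial genome, against 2.24, 2.15 and 2.46% in PBS 2 to 4. Markers of microglia and of oligodendrocytes, given further on, were also lowest in PBS 1, in 10 of 11 and 7 of 7 genes, as were those of B cells (6 of 7), plasmacytoid (5 of 6) and conventional dendritic cells (9 of 12) and the choroid plexus genes Ttr and Enpp2. Their part in this result and in those of chemokines and dendritic cell maturation was not tested.

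Among the DNA-binding subunits of AP-1, Fos had log2 values of 7.95, 10.05, 9.69 and 10.18 and Fosb 5.93, 8.37, 8.9 and 8.8. In both genes PBS 1 was below the other pools, which lay within 1 unit of each other. Jun, their dimer partner, differed less with 7.93, 8.66, 8.79 and 8.93, and Jund, which is expressed constitutively, had 4.54, 4.76, 5.08 and 4.96. The orphan nuclear receptors of the Nr4a family were the widest members. Nr4a1 had 3.61, 7.3, 7.17 and 7.72, Nr4a2 2.74, 5.82, 5.92 and 6.47 and Nr4a3 2.55, 5.17, 5.62 and 6.01. In all 3 the gap between PBS 1 and the next pool was over 2 units, and the other pools lay within 1 unit. Egr1, a zinc finger factor induced by growth factors and stress, had 6.74, 9.57, 9.66 and 9.8, and Atf3, a stress-induced repressor, 6.64, 8.51, 8.57 and 8.75. Genes that shut such responses off were also lowest in PBS 1: Zfp36, which encodes the mRNA-destabilizing protein tristetraprolin, had 10.1, 12.09, 11.79 and 12.11, and Dusp1, a phosphatase of MAP kinases, had 8.4, 10.63, 10.1 and 10.76. Sgk1, a serum-induced kinase, had 9.74, 10.31, 10.05 and 10.44 and Btg1, an antiproliferative factor, 9.67, 9.95, 9.9 and 10.02; their ranges stayed under 1 unit. Myc, a proliferation factor, had 3.49, 3.8, 3.46 and 4.12 and was lowest in PBS 3, the only member for which PBS 1 was not lowest. Fos, Fosb, Jun, Jund, Egr1, Atf3, Dusp1, Btg1 and Myc were named after their values were seen.

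The upstream windows of 3 of these genes are shown because they carry the half-site of the cAMP response element (CRE), a target of CREB-family factors. The sequences are the 250 bases before the transcription start from RefSeq (GRCm38.p6), on the strand of the gene, and capitals mark TGACG or its reverse complement CGTCA. The windows are chr12:85473640-85473889 (plus strand, Fos), chr7:19310046-19310295 (minus strand, Fosb) and chr15:101266596-101266845 (plus strand, Nr4a1).
Fos: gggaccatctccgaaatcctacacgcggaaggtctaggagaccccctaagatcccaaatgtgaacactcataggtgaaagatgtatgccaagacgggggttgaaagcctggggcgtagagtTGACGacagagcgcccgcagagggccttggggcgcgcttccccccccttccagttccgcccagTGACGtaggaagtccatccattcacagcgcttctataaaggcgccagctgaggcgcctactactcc
Fosb: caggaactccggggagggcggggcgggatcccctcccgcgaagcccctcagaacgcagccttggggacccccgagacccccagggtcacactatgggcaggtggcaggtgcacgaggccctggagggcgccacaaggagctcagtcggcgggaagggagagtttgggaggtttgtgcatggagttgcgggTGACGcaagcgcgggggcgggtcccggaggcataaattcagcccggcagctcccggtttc
Nr4a1: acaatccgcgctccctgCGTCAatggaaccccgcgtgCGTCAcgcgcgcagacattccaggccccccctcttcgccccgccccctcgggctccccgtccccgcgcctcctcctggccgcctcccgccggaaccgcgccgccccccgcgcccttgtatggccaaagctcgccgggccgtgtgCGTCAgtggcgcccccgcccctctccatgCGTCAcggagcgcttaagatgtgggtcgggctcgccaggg
The half-site occurred 2 times in the Fos window, at -129 to -125 and -66 to -62 from the start, once in the Fosb window and 4 times in that of Nr4a1. Windows were found for 34 of the 39 immediate-early genes, 49 windows in all, and 61.2% of them held the half-site on either strand, against 17.8% of all 32851 windows and 26.8% of the 11382 windows of expressed genes. The proteasome genes, which kept within 2-fold, had the half-site in 40.5% of 42 windows, and the cytosolic heat-shock chaperones in 44.0% of 25. Genes with PBS 1 more than 2-fold below each other pool had it in 36.7% of 177 windows. The whole palindrome TGACGTCA, which contains the half-site, was in 5 of the 49 immediate-early windows (10.2%). It was in 1.55% of all windows and 2.62% of those of expressed genes. The CArG box, the target of serum response factor, was in 6 of the 49 (12.2%), against 1.47% and 1.11%. Such matches describe the letters of these windows and do not show that a factor was bound.

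Chemokines were next in spread, and here pools other than PBS 1 also differed. Of 22 measured, 13 varied over 2-fold, and 9 did within PBS 2 to 4. The means over the list were 4.41, 5.25, 5.25 and 5.71. PBS 1 was lowest in 16 of 22 and PBS 4 highest in 10, against 33.3% and 26% of all genes. Chemokine transcripts were poorer in GC than average, with a median of 45.6%, and with the GC trend removed 12 were over 2-fold and PBS 1 was lowest in 13. The widest gene of the whole table with 50 or more reads was Cxcl1, a chemokine that attracts neutrophils, with log2 values of 1.92, 6.58, 6.29 and 8.1. PBS 4 was highest, PBS 2 and 3 were close to each other and PBS 1 was over 4 units below them. Cxcl2, its neighbour and functional relative, had 6.75, 10.08, 9.61 and 11.1 in the same order of pools, and Cxcl3, the third of this kind, had 1.29, 2.13, 1.4 and 3.74. Ccl3 and Ccl4, which attract monocytes and T cells, had 5.63, 7.84, 7.61 and 8.74 and 4.0, 5.35, 5.17 and 6.35, also lowest in PBS 1 and highest in PBS 4. The CXCR3 ligands that interferon-γ induces did not share this order: Cxcl9 had 10.01, 10.59, 10.03 and 10.08 and Cxcl10 7.91, 8.16, 7.72 and 7.88, both highest in PBS 2 and within 1 unit over the pools. Ccl5, which attracts T cells and monocytes, had 8.67, 9.19, 8.24 and 8.78, and Ccl2, the ligand of CCR2, had 6.29, 6.46, 7.33 and 7.21, higher in PBS 3 and 4. Ccl22, a dendritic cell chemokine for CCR4, had 3.64, 4.97, 5.09 and 3.93, higher in PBS 2 and 3 than in PBS 1 and 4. Per kilobase the most abundant chemokine transcripts were Ccl5 at 8.78, Cxcl9 at 8.58, Cxcl2 at 8.34 and Ccl3 at 7.84 on the log2 scale. Cxcl3, Cxcl10, Ccl2, Ccl3, Ccl4 and Ccl22 were named after their values were seen.

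The windows of Cxcl1 and Cxcl2 are shown because both hold paired NF-kappaB matches close to the start. They lie at chr5:90890995-90891244 and chr5:90903649-90903898, both on the plus strand of GRCm38.p6, taken from RefSeq as above, and capitals mark GGNNTTTCC or its reverse complement.
Cxcl1: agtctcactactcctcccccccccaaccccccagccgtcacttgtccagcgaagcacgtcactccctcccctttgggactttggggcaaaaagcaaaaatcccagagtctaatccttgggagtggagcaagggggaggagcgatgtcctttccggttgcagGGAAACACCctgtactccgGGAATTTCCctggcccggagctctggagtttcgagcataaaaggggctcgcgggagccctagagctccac
Cxcl2: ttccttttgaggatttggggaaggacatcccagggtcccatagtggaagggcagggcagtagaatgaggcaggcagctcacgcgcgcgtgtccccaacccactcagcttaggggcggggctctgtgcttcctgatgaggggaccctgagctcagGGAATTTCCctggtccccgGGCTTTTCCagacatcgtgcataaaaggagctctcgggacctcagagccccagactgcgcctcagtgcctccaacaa
In Cxcl1 the matches were at -89 to -81 and -70 to -62 from the start, and in Cxcl2 at -96 to -88 and -77 to -69. Windows were found for 16 of the 22 chemokine genes, and 37.5% of these held the motif on either strand, against 4.93% of all 32851 windows and 5.25% of those of expressed genes.

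**Figure D4:**
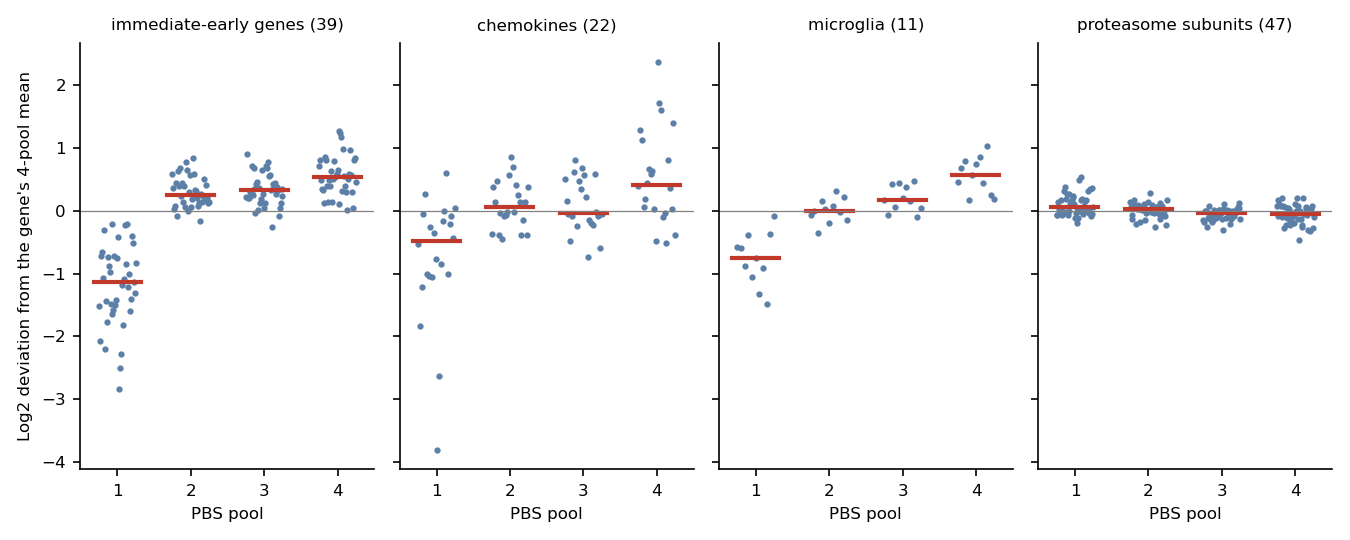
Log2 deviation of each gene from its own mean over the 4 PBS pools (vertical) by pool (horizontal) for immediate-early genes, chemokines, microglial markers and proteasome subunits; red lines are medians. Immediate-early genes are low in PBS 1, chemokines spread downward in PBS 1 and upward in PBS 4, microglial markers are low in PBS 1 and high in PBS 4, and the 47 proteasome genes stay near 0.

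Of 29 inflammatory cytokines and mediators 15 varied over 2-fold and 5 within PBS 2 to 4. PBS 4 was the highest pool in 19 of 29 and PBS 1 the lowest in 18, against 26% and 33.3% of all genes. Il1b, the precursor of interleukin-1β, was the most abundant cytokine per length (9.12 log2 per kilobase) and had log2 values of 9.11, 10.37, 9.94 and 10.78. Tnf, which encodes tumor necrosis factor, had 5.76, 6.45, 6.54 and 7.18, and both were lowest in PBS 1 and highest in PBS 4. Il6, a cytokine that supports Th17 cells, had 0.64, 2.65, 2.16 and 4.3; Il10, an anti-inflammatory cytokine, had -0.73, 2.09, 2.26 and 2.92. Both were weakly expressed, lowest in PBS 1 and highest in PBS 4. Osm, a cytokine of the interleukin-6 family, had 5.98, 8.64, 8.41 and 8.92, and Ptgs2, the inducible cyclooxygenase of prostaglandin synthesis, 7.76, 9.58, 9.2 and 9.98. Vegfa, an angiogenic and permeability factor, had 6.72, 8.11, 8.23 and 8.95. The arginine-using enzymes Arg1 and Nos2 had other orders. Arg1, arginase 1, had 10.22, 9.49, 9.56 and 10.8, higher in PBS 1 and 4 than in PBS 2 and 3, whereas Nos2, the inducible nitric oxide synthase that competes for arginine, had 7.86, 6.94, 7.27 and 6.91, highest in PBS 1. Nampt, an enzyme of NAD synthesis, was even with 9.75, 9.92, 9.73 and 9.77. Il12b, the subunit shared by interleukins 12 and 23, had -1.81, 0.82, 0.74 and 0.87 and was lowest in PBS 1, and Csf2, Il23a and Ifnb1 were not in the table used here. Tnf, Osm, Ptgs2, Nos2 and Il12b were named after their values were seen.

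Of 25 regulators of NF-kappaB 4 were over 2-fold, or 16% against 14.9% of all genes, and none was within PBS 2 to 4. Their median SD was 0.205 against 0.153 for genes nearest in level. PBS 1 was lowest in 8 of the 25 and highest in 11, against 33.3% and 33.4% of all genes. The variable ones were 3 feedback genes and the subunit Rel: Tnfaip3, the ubiquitin editor A20, had log2 values of 8.15, 9.93, 9.7 and 10.24, Nfkbiz, a nuclear inhibitor-like protein, 7.32, 9.17, 9.18 and 9.64, and Nfkbia, the inhibitor IκBα, 6.88, 7.66, 7.48 and 8.14. PBS 1 was lowest and PBS 4 highest in all 3. Among the subunits Rel, which encodes c-Rel, had 6.58, 7.17, 7.65 and 7.53, Rela had 4.93, 4.82, 4.78 and 4.63 and Nfkb1 6.9, 6.99, 7.0 and 6.81; all were named after their values were seen. Cytosolic heat-shock chaperones were lowest in PBS 1 in 19 of 23 genes, against 33.3% of all genes. The constitutive Hsp90ab1 had 9.6, 10.14, 9.96 and 10.03 and Hspa8 8.22, 8.87, 8.76 and 8.83, while the inducible Hspa1a had 3.03, 3.83, 5.31 and 5.88 and Dnajb4, a DNAJ co-chaperone, 2.49, 4.29, 4.79 and 5.42. In Hspa1a and Dnajb4 PBS 3 and 4 exceeded PBS 2 as well as PBS 1, and 3 of 23 were over 2-fold within PBS 2 to 4. Hspa1a has a near-identical copy, so its reads may be split between the 2 genes. Chaperones of the endoplasmic reticulum varied less: 1 of 26 was over 2-fold, and Hspa5, the lumenal chaperone BiP, had 9.41, 10.01, 10.13 and 10.19. Transcription factors of the myeloid and lymphoid lineages had 6 of 43 over 2-fold and none within PBS 2 to 4. Of these 6, Nr4a1, Klf4 and Klf2 are also on the immediate-early list, and the others were Ets2, Gfi1 and Irf1; Klf2, Ets2 and Gfi1 are named because they were among the variable ones. Among the even members, Zeb2 had 10.03, 10.13, 10.32 and 10.38. Pmaip1, the stress-induced death promoter NOXA, was the 1 of 16 BCL2-family genes over 2-fold, with 3.15, 6.13, 5.89 and 6.3; Mcl1, the short-lived survival protein, had 10.35, 10.66, 10.56 and 10.95.

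Interferon-stimulated genes were abundant and as a list lowest in PBS 4. All 52 listed genes were in the table, 26 of them in the top 10%, and 1 varied over 2-fold. Their median SD was nevertheless 0.232 against 0.156 for genes nearest in level, with 37 of 52 above those. The list means were 6.52, 6.47, 6.49 and 6.22, and PBS 4 was the lowest pool in 33 of 52, against 27.1% of all genes. Irf1, a transcription factor that interferons induce and the member over 2-fold, had log2 values of 8.31, 7.59, 7.51 and 7.21. Stat2, a transducer of type I interferon signals, had 7.58, 6.85, 7.24 and 6.62; in both PBS 1 was highest and PBS 4 lowest. Ifitm3, a membrane protein that blocks virus entry, was at 9.1, 9.43, 9.4 and 9.19 and had 9.84 log2 per kilobase. With the GC trend removed the mean deviation of the list in PBS 4 was -0.21, against -0.20 before, and no member varied over 2-fold. Immunoproteasome subunits, also interferon-inducible, had the same end points: Psmb8 had 7.88, 7.68, 7.5 and 7.38 and Psmb9 7.92, 7.91, 7.75 and 7.63.

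Of 25 glycolytic genes 2 were over 2-fold. Ldha, lactate dehydrogenase A, had log2 values of 9.56, 9.36, 9.34 and 9.31, and Pkm, pyruvate kinase, had 9.05, 8.7, 8.5 and 8.5. PBS 1 was highest in 15 of 25, against 33.4% of all genes. This list is GC-rich, with a median of 52.9%. With the GC trend removed PBS 1 was highest in 12, and the mean deviation of the list in PBS 1 went from 0.15 to 0.08. Gapdh, a glycolytic enzyme often used as a reference, had only 4.97, 4.15, 3.83 and 4.03; many pseudogenes resemble it, so its reads may have been split or discarded and its level is uncertain. The nuclear genes of the respiratory chain had no member over 2-fold among 73 and a median SD of 0.146, while the mitochondrially encoded genes, 7 subunits of the same complexes and both ribosomal RNAs, were lowest in PBS 3 in 9 of 9 cases, as 20.8% of all genes were. Of these 9, 3 were over 2-fold, and all 9 had a larger SD than genes nearest in level (median 0.355 against 0.174). For mt-Rnr2 the values were 17.86, 17.98, 16.34 and 18.05, for mt-Rnr1 16.52, 16.44, 15.89 and 16.46 and for mt-Co1, a cytochrome oxidase subunit, 12.66, 12.96, 12.36 and 13.17. The gap of PBS 3 to the next pool was over 1 unit in the large ribosomal RNA and under 1 unit in the others named. Among the nuclear genes of the chain PBS 3 was also the lowest pool in 39 of 73, and in 38 with the GC trend removed. Their mean deviation in PBS 3 was -0.12, against -0.60 for the mitochondrially encoded genes. Atp5b, a nuclear ATP synthase subunit, had 8.76, 9.27, 9.02 and 9.31, lowest in PBS 1. Cybb, the catalytic subunit of the phagocyte NADPH oxidase, had 11.26, 11.71, 11.39 and 11.73. Insig1, which holds back sterol synthesis, had 4.93, 5.2, 5.62 and 6.07 and Lpl, lipoprotein lipase, 5.26, 5.83, 5.93 and 6.64, both highest in PBS 4 and over 2-fold. Lysosomal genes were high, with 30 of 43 in the top 10%, and 1 was over 2-fold; Psap, the precursor of the saposins, had 12.01, 11.88, 11.73 and 11.57 and Ctsd, cathepsin D, 11.29, 11.4, 11.45 and 11.63. Gpnmb, a membrane glycoprotein of lipid-laden macrophages, had 10.18, 10.66, 10.71 and 10.56.

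Proliferation genes were low. Their median percentile per kilobase was 17.4 over 34 genes, although Mki67, the nuclear antigen Ki-67 of cycling cells, had log2 values of 7.02, 7.26, 7.04 and 7.31 and Pcna, the DNA polymerase clamp, 5.64, 6.16, 6.25 and 6.63. Cenpf, a kinetochore protein, had 1.0, 2.42, 2.01 and 2.48. Of 34 genes 7 were over 2-fold (20.6%) and none within PBS 2 to 4. Over all genes the share was 14.9%, and in the tenth of genes that holds the median level of the list it was 21.1%. The median SD was 0.302, against 0.280 for genes nearest in level. PBS 1 was lowest in 24 of 34, against 33.3% of all genes.

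Proteasome subunits and splicing factors were among the evenest lists. The median SD was 0.13 for 47 proteasome subunits and 0.149 for 37 splicing factors, against 0.151 and 0.156 for genes at the same level. Nuclear respiratory chain genes had 0.146 against 0.158 and actin assembly genes 0.146 against 0.157. Among 9478 genes with 50 or more reads on average, Ube2q1, a ubiquitin-conjugating enzyme, was the narrowest with 6.5, 6.51, 6.5 and 6.5. It was followed by the checkpoint gene 4632428N05Rik (also named Vsir, for the receptor VISTA) with 7.62, 7.61, 7.62 and 7.61 and by Psmd14, the deubiquitinating proteasome subunit, with 6.1, 6.11, 6.12 and 6.1. The 8 narrowest genes, with Surf4, Gabarap, Psme4, Gpr108 and Kpna6, all had a range of 0.0267 or less, which is below what counting alone gives and marks the low end of 9478 genes rather than a property shown for each. Cytosolic ribosomal protein genes had 2 of 83 over 2-fold, but a median SD of 0.198 against 0.155 for genes nearest in level. Rpl4 had 9.19, 9.65, 9.33 and 9.59 and Rps3 8.71, 8.81, 8.67 and 8.67, whereas Rpl15 had 4.1, 5.2, 5.39 and 5.93, lowest in PBS 1; ribosomal protein genes have many processed pseudogenes, so single members are uncertain. Actb, β-actin, had 12.28, 11.96, 11.96 and 11.88 and Eef1a1, an elongation factor, 9.74, 10.14, 9.9 and 10.11.

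The 12 widest genes with 50 or more reads on average were all lowest in PBS 1, and so were 45 of the 50 widest, among which PBS 4 was highest in 38. Apart from the chemokines, cytokines and Nr4a genes given above, they included genes of other functions. Ttr, which encodes the thyroid hormone and retinol carrier transthyretin of the choroid plexus, had log2 values of 0.8, 4.92, 5.9 and 6.66, from 27, 593, 555 and 913 reads. Enpp2, which encodes autotaxin and is also strong in choroid plexus, had -0.12, 3.31, 4.1 and 4.58. Adamts1, a secreted metalloprotease, had -0.02, 1.79, 3.87 and 3.92, and Id3, an inhibitor of helix-loop-helix factors, had -0.02, 2.66, 1.89 and 3.28. Fam71a had 0.38, 2.81, 4.0 and 4.08. Slc4a10, a bicarbonate transporter of choroid plexus and of neurons, is not among these genes, as it had only 0, 10, 11 and 12 reads. It was the widest of the solute carriers, with log2 values of -4.98, -0.9, 0.31 and 0.47. Its value in PBS 1 is set by the offset of 0.5 reads.

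Markers of other cell types that a central nervous system preparation could hold were mostly low, and several were lowest in PBS 1. Shares of reads, here and in the next paragraph, are of all reads with mitochondrial ones included, whose part was smallest in PBS 3. Of 12 microglial markers 11 were in the table and made up 0.032 to 0.056% of reads. Among reads outside the mitochondrial genome, these markers made up 0.05, 0.069, 0.069 and 0.079% in PBS 1 to 4. Tmem119 and P2ry12, the most specific of them, had log2 values of 3.39, 3.91, 4.15 and 4.44 and 3.96, 4.54, 4.48 and 5.23, and Sall1, a microglial transcription factor, 0.95, 1.48, 2.26 and 2.62. PBS 4 was highest in 11 of 11, PBS 1 lowest in 10 and 8 were over 2-fold, of which 2 within PBS 2 to 4. Over all genes the first 3 shares were 26%, 33.3% and 14.9%. Border macrophage markers had 5 of 10 genes in the table (0.029 to 0.044% of reads), led by F13a1 with log2 values of 7.66, 7.53, 7.41 and 8.1 and Stab1 with 6.84, 6.42, 6.48 and 6.46; Mrc1, the mannose receptor, had 5.03, 5.21, 5.85 and 6.9, highest in PBS 4, and Lyve1, Cbr2 and Folr2 were not listed. Of 18 T cell markers all were in the table at 0.022 to 0.03% of reads; Cd3e had 4.09, 4.21, 3.78 and 4.17 and Trac 2.9, 3.11, 2.88 and 2.98, with 2 over 2-fold. B and plasma cell markers had 7 of 13 in the table, 0.004 to 0.006% of reads, with Ighm at 3.58, 4.84, 4.35 and 4.74 and no Cd79a or Pax5 listed. Neutrophil markers had 11 of 14, 0.026 to 0.029% of reads, led by Csf3r with 6.73, 7.14, 6.84 and 7.01 and Mmp8 with 6.06, 5.58, 5.49 and 6.49, with S100a8 at 5.41, 4.93, 4.57 and 5.1 and no Ly6g, Mpo or Elane listed. Natural killer cell markers had 6 of 11 at 0.004 to 0.005% of reads, without Ncr1, Prf1 or Eomes. Of 10 plasmacytoid dendritic cell markers 6 were listed at 0.015 to 0.023% of reads, and of 10 mast cell and basophil markers 1, Kit, which is not specific to them.

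Neural markers were scarce. Oligodendrocyte markers had 7 of 13 listed at 0.007 to 0.011% of reads; Mbp, myelin basic protein, had 5.36, 5.73, 5.68 and 5.74, and PBS 1 was lowest in 7 of 7. Astrocyte markers had 8 of 10 at 0.01 to 0.012%, neuronal markers 3 of 11 at 0.002 to 0.003%, endothelial and pericyte markers 6 of 13 at 0.059 to 0.084% and erythroid markers 3 of 9 at up to 0.002%. The endothelial list was led by Ly6a, which leukocytes also express, with log2 values of 9.34, 9.39, 9.05 and 8.95, and Flt1, a VEGF receptor, with 6.99, 7.18, 7.1 and 6.98, while the defining genes Cldn5 and Cdh5 were not listed. Rbfox3 and Syt1 of neurons were not listed either. All 12 conventional dendritic cell markers were in the table at 0.017 to 0.029% of reads; the highest were Wdfy4 with 5.99, 6.13, 6.36 and 5.89 and Tlr3 with 4.59, 5.41, 5.34 and 5.4. Flt3, their growth factor receptor, had 1.33, 2.8, 2.96 and 2.05, Xcr1, a receptor of cross-presenting cells, 0.8, 3.13, 2.58 and 2.74, and Zbtb46, a factor of the conventional lineage, 2.87, 3.29, 3.52 and 2.98. PBS 1 was lowest in 9 of 12 and 6 were over 2-fold, against 33.3% and 14.9% of all genes. Tmem119, P2ry12, Sall1, Mrc1, Cd3e, Trac, S100a8, Flt3, Xcr1 and Zbtb46 were chosen as well known markers with earlier results known, not by the naming rule, and so count as named after their values were seen.

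**Figure D5:**
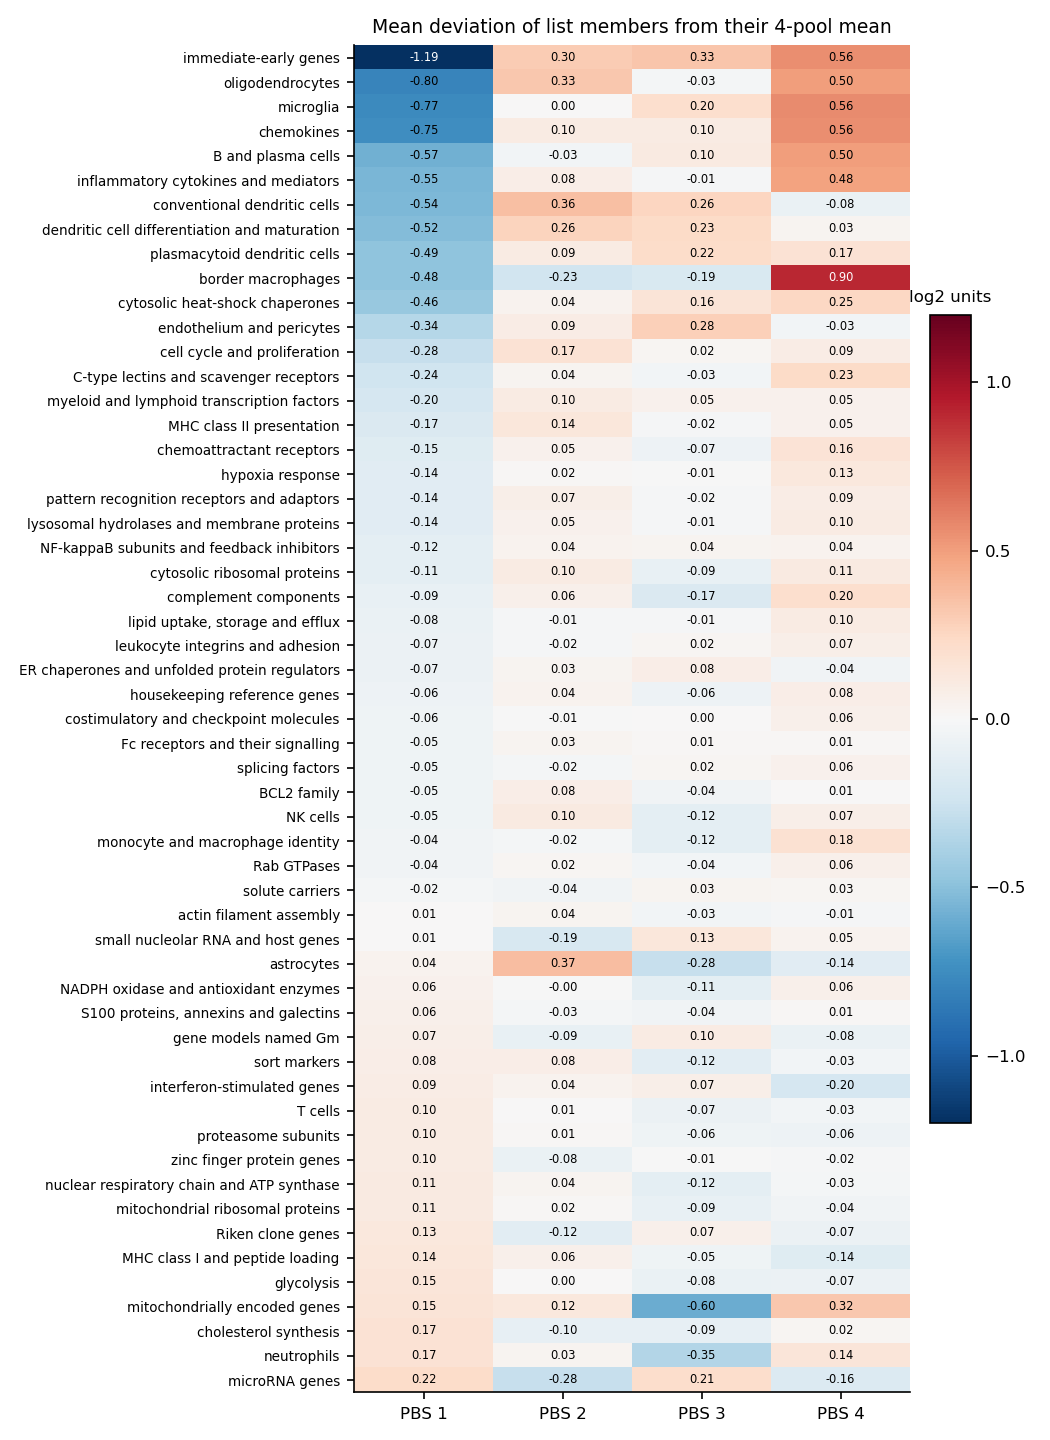
Mean log2 deviation of the members of each gene list from their own 4-pool means (colour and printed value) in PBS 1 to 4, for function lists and lists of other cell types with 5 or more genes, ordered by PBS 1. Immediate-early genes in PBS 1 are at -1.19, border macrophage markers in PBS 4 at 0.90 and mitochondrially encoded genes in PBS 3 at -0.60.

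By class of transcript, protein-coding genes made up 10750 of the 12256 and varied over 2-fold in 11.2% of cases, with a median level of 4.15. Antisense RNAs (176 genes) had a median level of 0.72 with 67.6% over 2-fold, long non-coding RNAs (74 genes) 1.30 with 41.9%, and processed pseudogenes (612 genes) 1.64 with 28.3%. No source used here states whether reads were counted by strand, and reads of antisense RNAs and of their partners cannot be told apart. In these 3 classes the median SD was 0.554, 0.385 and 0.301, against 0.406, 0.357 and 0.320 for the genes nearest in level. Gene models named Gm were 938 genes with 38.7% over 2-fold and a median SD of 0.364, close to the 0.359 of genes at their level. Zinc finger protein genes, mostly weakly expressed, had PBS 1 highest in 125 of 263, where 33.4% is the share of all genes. With the GC trend removed PBS 1 was highest in 139 of them. Solute carriers had 24 of 191 over 2-fold. Slc7a2, an arginine transporter, was the highest of these with 10.78, 10.81, 10.7 and 11.06.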

How the data were processed

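RNA of sorted moDCs was amplified with an Ovation kit and sequenced as single-end reads of 150 bases, per the labels' protocols. These also give an RNA integrity number of at least 8 and 12 PCR cycles. The submitters' processing notes name Trimmomatic, STAR 2.3.0, HTSeq 0.5.3, limma and the mm10 build; no source used here names the annotation, a strand setting or a filter on weak genes. The authors deposited 1 table of normalised log2 values for 12256 genes in 8 libraries, not divided by gene length, and 4 PBS columns were used. These log2 values equal the log of reads plus 0.5 over a scaled library size, so that whole reads were recovered for 100% of values within 0.01 of a read. The scaled sizes were 15749409, 19579154, 9294678 and 9037267 in PBS 1 to 4, and 122, 71, 342 and 550 genes had under 10 reads, so the precision of weak genes is lowest in PBS 3 and 4.

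Computed from these were the mean, SD and range over the pools, the counting SD, the median SD of the 501 genes nearest in mean level, and the level per kilobase of merged exon (GENCODE vM21, GRCm38; 11372 genes matched by symbol, 560 by synonym, 324 not matched). A gene counted as variable where its range exceeded 1 log2 unit. Python 3.11.15, pandas 2.3.3, numpy 2.4.6 and scipy 1.17.1 were used, and the steps were tested on simulated data. Replicates are separate pools per the labels, and every pair of pools differed by more than sampling noise, with chi-square per degree of freedom between 10.97 and 84.69. The expected split came from total reads, mitochondrial ones included, and not from the scaled sizes. The pairs with PBS 3 (64.96 to 84.69) therefore also hold its lower mitochondrial share.

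The genes named are the sort markers, the 12 highest by share of reads and per length, the 3 highest and 2 widest of each list, the 2 highest of each list of another cell type, and the 12 widest and 8 narrowest with 50 or more reads; others are marked as chosen after their values were seen, and some selected genes are not reported here. The members and lists were chosen with earlier results of these data known. Alternatives were another normalization, filters on weak genes, a larger offset, thinned reads, a threshold of 4-fold, leaving out each pool and, added after seeing the data, the removal of each pool's median deviation in 20 bins of GC content.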

Additional observations from a re-analysis of the deposited data

Results flagged for a closer look

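With 4 pools in the group, 1 pool was taken to lie far from the others where its gap to the nearest of them exceeded the share of the whole range given by Dixon's critical value for 4 samples. Chance sets about 1 in 20 groups apart by this measure, and 1 pool lay apart for 684 of 12256 genes (5.58%), for 19 of the 166 genes named and for 4 of 44 list means. Among the 19 genes PBS 1 was the pool apart in 14, PBS 2 in 2, PBS 3 in 3 and PBS 4 in 0.

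These named genes include many chosen for a wide range or after their values were seen, so the tally says nothing of other genes. Nr4a1, Egr1, Atf3 and Zfp36 had log2 values of 3.61, 6.74, 6.64 and 10.1 in PBS 1, where the other pools reached at least 7.17, 9.57, 8.51 and 11.79. For Cd83 the value in PBS 1 was 4.29, for Klf2 3.14, for Osm 5.98, for Pmaip1 3.15 and for Il12b -1.81. Smaller gaps of the same sign were seen in Hspa8, at 8.22 in PBS 1 and at least 8.76 elsewhere, in Mbp, at 5.36 and at least 5.68, and in Tlr3, at 4.59 and at least 5.34. Ldha went the other way, with 9.56 in PBS 1 and 9.31 to 9.36 elsewhere, and so did Stab1, with 6.84 and 6.42 to 6.48. The list means of immediate-early genes (5.53 in PBS 1), of NF-kappaB regulators (5.83) and of myeloid and lymphoid transcription factors (5.8) were each lowest in PBS 1. By member, PBS 1 was lowest in 38 of 39, 8 of 25 and 22 of 43 genes, against 33.3% of all genes. It was the highest pool in 11 of the 25 NF-kappaB regulators, so their low mean was not shared by most members.

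PBS 3 lay below the rest in mt-Rnr2 and mt-Rnr1, with log2 values of 16.34 and 15.89, and slightly above them in Itgax with 7.5. PBS 2 was apart in Cxcl9, where it had 10.59 and the other pools 10.01 to 10.08. It was also apart in Psme4, at 6.83, a gene whose whole range is among the narrowest measured. In PBS 4 the mean of interferon-stimulated genes was 6.22, against 6.47 to 6.52.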

How the results depend on the processing

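With all pools the median SD was 0.2134, 1831 genes varied over 2-fold and 15 of 44 lists exceeded the share of all genes. Leaving out genes with a mean under 1 gave 961 genes and 24 lists, adding 1 on the linear scale gave 755 genes and 24 lists, and a 4-fold threshold gave 245 genes. Without each pool in turn the median SD ran from 0.1632 to 0.2229 and the number of genes from 905 to 1520; both low ends came without PBS 1, and 38 of 44 list medians of the SD moved then. The count of lists above the share of all genes ran from 12 to 18 in these runs. Immediate-early genes over 2-fold numbered 0 without PBS 1, against 32 with all pools and 28 to 33 in the other settings at 2-fold. The GC correction, added after seeing the data, gave a median SD of 0.1987, 1768 genes and 17 lists. Quantile normalization, equal medians, thinned reads and a minimum of 10 reads kept the 2-fold count between 1234 and 1990. No paired analysis was possible because the labels number the PBS pools 1 to 4 and no other group enters. Depth limits weak genes most, since counting alone gives an SD of 0.387 in the lowest 10% of genes.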
